A study of Mus musculus with 6 samples.

Results

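The Clec4 C-type lectins are 7 genes of the count table, Clec4a1, Clec4a2, Clec4a3, Clec4b1, Clec4d, Clec4e and Clec4n, out of 47069 genes counted and 17037 genes abundant enough to be tested. They were chosen by symbol, with their higher levels in the KO mice of the same comparison already known, so that their difference between genotypes is a description and carries no test here. The libraries came from lungs of adult C57BL/6J mice collected at ZT10, which is 10 h after lights on, with 1 library per mouse. The 3 WT mice (WT4 to WT6) were of the C57BL/6J background strain. The 3 KO mice (KO4 to KO6) carried, in the same background, the Zpbp2-/- allele, a deletion of the first 3 exons of Zpbp2. Both genotypes came from 1 colony with 12 h of light and 12 h of darkness a day. The comparison asks what the deletion of Zpbp2, a gene of a human asthma locus, goes with in the lung at that time of day.

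C-type lectin receptors are membrane proteins of myeloid cells that bind sugars and glycolipids of microbes and of damaged host cells. Several Clec4 proteins, Mincle and Dectin-2 among them, have a very short cytoplasmic tail and signal through an adaptor, the Fc receptor gamma chain (Fcer1g), which recruits the kinase Syk and, through Card9, switches on NF-kappaB and cytokine genes. DCIR, the product of Clec4a2, instead carries an inhibitory motif that recruits the phosphatases Ptpn6 and Ptpn11. In the lung these receptors are best known for sensing fungi and mycobacteria on monocytes, macrophages, dendritic cells and neutrophils.

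The 7 genes lay together on chromosome 6, between bases 122921848 and 123289870 of GRCm38 (GENCODE mouse release 21), a stretch of 368 kb. It held 13 annotated genes, and the 9 protein-coding ones among them were the 7 genes with Clec4a4 and Clec4b2. All were on the plus strand except Clec4e. In order along the chromosome, Clec4a1 lay at chr6:122921848-122934619, Clec4a3 at chr6:122952515-122969875, Clec4b1 at chr6:123049962-123071555, Clec4a2 at chr6:123106428-123143999, Clec4n at chr6:123229843-123247021, Clec4d at chr6:123262111-123275265 and Clec4e at chr6:123281789-123289870. The longest transcript of Clec4e had 4 exons, that of Clec4n 7, and those of the other 5 genes had 6 each.

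The coding sequences were related but not alike. Over 21 pairs, identity in a global alignment ran from 58.8% (Clec4b1 and Clec4d) to 87.6% (Clec4a2 and Clec4b1). Clec4a1 and Clec4a3, neighbours at the start of the cluster, matched at 72.1% of aligned bases, and Clec4d and Clec4e, neighbours at its end, at 61.9%. No exon of the 7 genes overlapped an exon of another gene. Of all 50-base stretches of its transcripts, Clec4b1 shared 8.68% with Clec4a2, and Clec4a2 shared 6.69% with 197 other genes, Clec4a4 and Clec4b1 among them. At 100 bases only Clec4a2 still shared any, 2.14%, with Clec4a4. Reads of Clec4a2 and Clec4b1 could thus be assigned less surely than those of the others. Clec4a1, Clec4a3, Clec4d and Clec4e shared no 50-base stretch with any annotated transcript, and Clec4n shared 0.686% with the pseudogene Gm44147.

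RefSeq promoter windows (GRCm38.p6, from 250 bases before to 50 bases after a transcript start) were at hand for 6 of the 7 genes, as 7 windows that include 2 overlapping ones for Clec4a3. The start used for each window lay within 4 bases of a GENCODE transcript start. The windows were searched on both strands for the core of the site bound by PU.1, the myeloid transcription factor encoded by Spi1, spelled GAGGAA, which reads TTCCTC on the other strand. The windows of the 3 genes with the largest fold changes and of Clec4d, the neighbour of Clec4e with the smallest, are shown 5′ to 3′ in the direction of transcription, with every GAGGAA or TTCCTC in capitals.
Clec4a1 (chr6:122921598-122921897, plus strand): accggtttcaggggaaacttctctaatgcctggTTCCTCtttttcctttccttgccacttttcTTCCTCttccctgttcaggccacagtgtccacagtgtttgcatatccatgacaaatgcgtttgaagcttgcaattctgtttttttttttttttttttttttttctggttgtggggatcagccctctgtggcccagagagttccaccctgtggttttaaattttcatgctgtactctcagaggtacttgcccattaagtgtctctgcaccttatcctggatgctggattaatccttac
Clec4a3 (chr6:122952394-122952693, plus strand): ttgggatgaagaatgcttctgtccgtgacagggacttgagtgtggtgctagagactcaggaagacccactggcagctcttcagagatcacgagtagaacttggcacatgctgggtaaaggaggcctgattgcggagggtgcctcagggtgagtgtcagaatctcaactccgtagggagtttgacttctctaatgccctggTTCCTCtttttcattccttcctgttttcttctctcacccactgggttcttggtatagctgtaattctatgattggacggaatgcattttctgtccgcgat
Clec4e (chr6:123289822-123290121, minus strand): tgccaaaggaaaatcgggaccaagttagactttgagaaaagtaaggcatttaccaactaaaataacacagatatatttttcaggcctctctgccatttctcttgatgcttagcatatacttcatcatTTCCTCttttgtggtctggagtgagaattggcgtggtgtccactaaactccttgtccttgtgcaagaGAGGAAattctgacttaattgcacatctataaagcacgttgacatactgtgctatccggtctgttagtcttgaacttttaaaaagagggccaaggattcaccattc
Clec4d (chr6:123261857-123262156, plus strand): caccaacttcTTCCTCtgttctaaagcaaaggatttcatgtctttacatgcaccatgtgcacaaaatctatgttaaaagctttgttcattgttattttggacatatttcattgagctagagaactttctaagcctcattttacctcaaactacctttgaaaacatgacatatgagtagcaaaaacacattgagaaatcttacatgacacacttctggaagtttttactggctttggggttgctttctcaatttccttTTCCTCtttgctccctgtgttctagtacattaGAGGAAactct
Counted from the transcript start as 0, the first base of a match stood at -217 and -187 in Clec4a1, at -50 in Clec4a3, at -123 and -56 in Clec4e, and at -240, 7 and 39 in Clec4d. Clec4b1 had matches at -68 and -39, and the window of Clec4a2 had none. In all, 5 of the 7 windows, from 5 of the 6 genes, held the letters, as did 28.3% of the 32851 RefSeq windows of the same length. The other window of Clec4a3 (chr6:122952265-122952564), which is not shown, had no match. The longest run of letters that any 2 of the genes shared was 17 bases, between Clec4a1 and Clec4a3, and it held the motif.
Clec4a1 and Clec4a3, shared run: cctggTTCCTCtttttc
This run began 222 bases before the start in Clec4a1 and 55 bases before it in Clec4a3. A C/EBP motif, TTNNGCAA on either strand, matched only Clec4e, at -66 and without overlap with the other matches there, against 10.8% of all windows. The clock motifs TAGGTCA (the ROR and REV-ERB element, in 2.61% of all windows) and CACGTG (the E-box, in 7.15%) matched none of the 7 windows. A match of letters does not show that a factor binds, and an absent match covers these windows only.

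The libraries differed in depth. Total counts ran from 19981428 (KO6) to 46796908 (KO5), at which 3 counts correspond to 0.0629 to 0.148 CPM (counts per 1000000 counts, here on library sizes scaled by TMM normalization). Zpbp2 gave 1, 2 and 2 counts in the WT mice and 0 in each KO mouse, too few to check the genotypes closely. KO5 stood apart from the other KO mice. Its 9 B cell markers summed to 1061 CPM against 248 and 299 CPM in KO4 and KO6, and it held 24 counts of 4 Y-linked genes where the other libraries held 0 or 1. Those 24 counts were few beside the 47369 counts in KO5 of Xist, an RNA of female cells. Xist gave 15033 to 23236 counts in the other libraries. Results are therefore also given without KO5 where that changed them. The tissue was not sorted, so in each comparison fewer cells of a type and less RNA per cell cannot be told apart. The p-values measure only the spread between these mice.

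Every KO mouse had a higher level than every WT mouse for 7 of the 7 Clec4 genes. Over all tested genes 17.0% had every KO mouse above every WT mouse, and since the genes were chosen for being higher nothing is read from their count. All 7 passed the filter on low counts, with 25 to 783 counts in a library. Their median log2 fold change was 0.73, beside a median of 0.0030 over all tested genes. By edgeR's quasi-likelihood test 4 of the 7, Clec4a1, Clec4a3, Clec4e and Clec4n, had an adjusted p of at most 0.05 with a higher level in KO mice, as had 3.72% of all tested genes. Clec4a1 and Clec4e also had a log2 fold change of at least 1.5, the size that the study required, as had 0.575% of all tested genes. The study's own list for ZT10 named Clec4a1 and not Clec4e. The count of 4 went to 0 without WT4, without WT5 or without WT6, and to 2 (Clec4a1 and Clec4a3) without KO4 or without KO6. It was 4 without KO5.

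**Figure D1:**
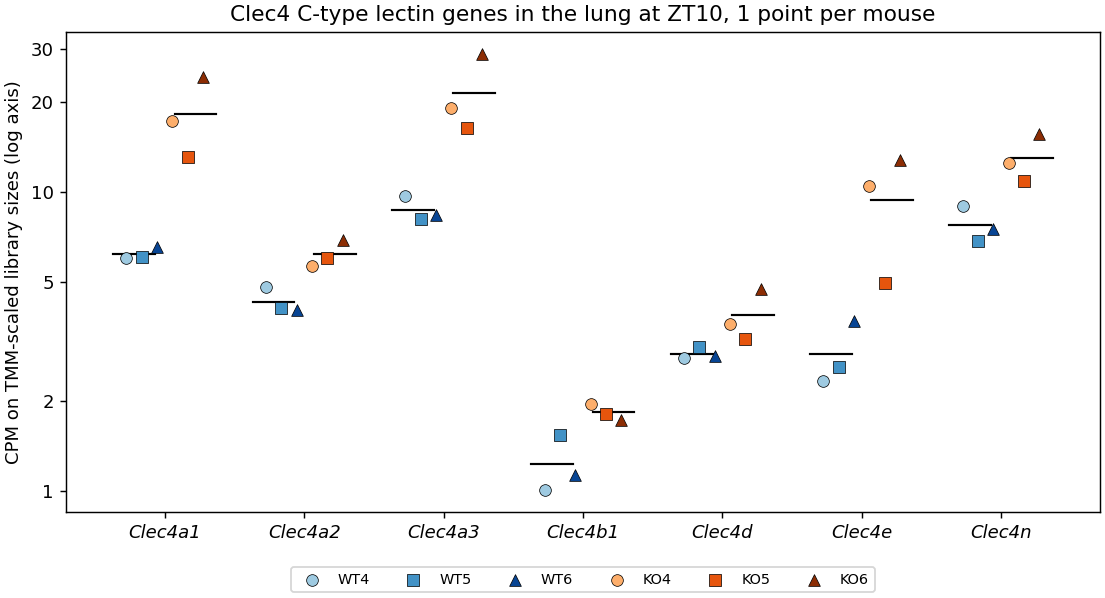
Levels of the 7 Clec4 genes in each mouse, in CPM on a logarithmic axis, with blue points for WT mice, orange to brown points for KO mice and a bar at each group's mean. The KO points lie above the WT points for all 7 genes, with the widest gap for Clec4a1 and the narrowest for Clec4d.

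Clec4e encodes Mincle, the receptor for mycobacterial cord factor and for a protein released by dying cells, and it had the largest fold change of the 7. Its level was 2.33, 2.59 and 3.69 CPM in WT4 to WT6 and 10.5, 4.95 and 12.7 CPM in KO4 to KO6. All KO mice were above the WT mice, but KO5 lay much closer to WT6 than to KO4 or KO6. The means were 2.87 ± 0.719 CPM in WT mice and 9.38 ± 4.0 CPM in KO mice (SD, n = 3 each), a log2 fold change of 1.69 with a standard error of 0.365, or 3.22-fold. The lowest KO mouse exceeded the highest WT mouse by a factor of 1.34. Leaving out 1 mouse at a time moved the log2 fold change between 1.40 and 2.0, the widest range of the 7.

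Clec4d encodes MCL, which pairs with Mincle and helps it to reach the cell surface, and lies next to Clec4e in the opposite direction. Its level was 2.78, 3.02 and 2.81 CPM in WT4 to WT6 and 3.62, 3.23 and 4.74 CPM in KO4 to KO6. The groups did not overlap, but KO5 was only 1.07 times WT5. The means were 2.87 ± 0.130 CPM in WT mice and 3.86 ± 0.784 CPM in KO mice (SD, n = 3 each), a log2 fold change of 0.42 with a standard error of 0.180 (1.34-fold), the smallest fold change of the 7. The partner genes Clec4d and Clec4e thus stood at opposite ends of the 7 by fold change.

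Clec4n encodes Dectin-2, the receptor for fungal mannans. Its level was 8.98, 6.85 and 7.50 CPM in WT4 to WT6 and 12.5, 10.8 and 15.7 CPM in KO4 to KO6. KO6 was highest and WT5 lowest, and the groups did not overlap. The means were 7.78 ± 1.09 CPM in WT mice and 13 ± 2.45 CPM in KO mice (SD, n = 3 each), a log2 fold change of 0.73 with a standard error of 0.168 (1.66-fold). Clec4b1 encodes DCAR, an activating receptor that also uses the Fc receptor gamma chain, and was the least abundant of the 7 in CPM. Its level was 1.01, 1.53 and 1.13 CPM in WT4 to WT6 and 1.96, 1.80 and 1.73 CPM in KO4 to KO6, from 25 to 86 counts a library. The KO mice differed little among themselves, and the lowest of them, KO6, was 1.13 times the highest WT mouse, WT5. The means were 1.22 ± 0.275 CPM in WT mice and 1.83 ± 0.116 CPM in KO mice (SD, n = 3 each), a log2 fold change of 0.59 with a standard error of 0.210 (1.5-fold).

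The remaining 3 genes belong to the DCIR branch. Clec4a2, which encodes DCIR itself, measured 4.79, 4.07 and 4.01 CPM in WT4 to WT6 and 5.67, 6.02 and 6.91 CPM in KO4 to KO6. The 3 KO mice were close together and all above WT4, the highest WT mouse. The means were 4.29 ± 0.433 CPM in WT mice and 6.20 ± 0.641 CPM in KO mice (SD, n = 3 each), a log2 fold change of 0.53 with a standard error of 0.142 (1.44-fold). Clec4a1, which encodes DCIR4, measured 6.00, 6.04 and 6.53 CPM in WT4 to WT6 and 17.3, 13.1 and 24.2 CPM in KO4 to KO6. The WT mice were nearly equal, and the lowest KO mouse, KO5, was 2.01 times the highest WT mouse, the widest gap of the 7. The means were 6.19 ± 0.298 CPM in WT mice and 18.2 ± 5.61 CPM in KO mice (SD, n = 3 each), a log2 fold change of 1.55 with a standard error of 0.218 (2.93-fold).

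Clec4a3, which encodes DCIR3, measured 9.70, 8.10 and 8.34 CPM in WT4 to WT6 and 19.2, 16.4 and 28.9 CPM in KO4 to KO6. It was the most abundant of the 7 in CPM in both genotypes, and KO6 stood well above the other KO mice. The means were 8.71 ± 0.864 CPM in WT mice and 21.5 ± 6.58 CPM in KO mice (SD, n = 3 each), a log2 fold change of 1.30 with a standard error of 0.213 (2.46-fold). Within the DCIR branch, the fold changes of Clec4a1 and Clec4a3 were thus larger than that of Clec4a2, whose protein carries the inhibitory motif.

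The size of the difference varied with no steady trend along the chromosome. It was largest at the 2 ends of the cluster, at Clec4a1 and Clec4a3 on one side and Clec4e on the other, and smaller at Clec4b1, Clec4a2, Clec4n and Clec4d between them. Among the 10 tested genes within 500 kb outside the cluster, a region set after the data were seen, the median log2 fold change was 0.18. All of them lay on the side of Clec4a1, and no gene of the flank beyond Clec4e was tested. Of the 10, 3 had every KO mouse above every WT mouse, beside 17.0% of all tested genes. Necap1, at a log2 fold change of -0.13, had every KO mouse below every WT mouse, as had 2651 of the 17037 tested genes. Apobec1, an RNA-editing enzyme (log2 fold change of 1.04, adjusted p = 0.0145 by edgeR's quasi-likelihood test), and Gdf3, a growth factor gene (1.51, adjusted p = 0.0424), were called higher. Over all tested genes 3.72% were called higher.

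**Figure D2:**
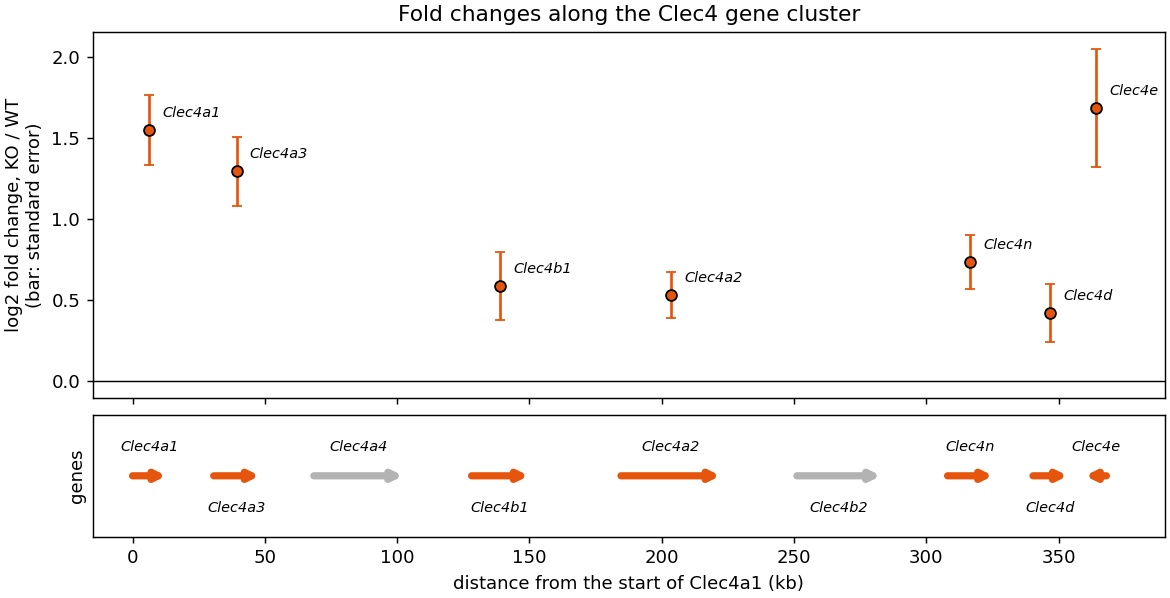
Upper panel, log2 fold change of KO over WT mice (points, with 1 standard error) for the 7 Clec4 genes at their place in the cluster. Lower panel, the 9 protein-coding Clec4 genes of the cluster, as arrows in the direction of transcription, in kb from the start of Clec4a1, with the 2 that were not tested in grey. Clec4a1 and Clec4a3 at one end and Clec4e at the other have log2 fold changes of 1.55, 1.30 and 1.69, and the 4 genes between them 0.42 to 0.73.

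The other Clec4 genes were barely detected or overlapped between genotypes. Clec4a4 of the same cluster gave 2, 0 and 1 counts from WT4 to WT6 and 3, 11 and 6 counts from KO4 to KO6, and Clec4b2 gave 1 count in all, in KO5. Clec4f, a receptor of liver Kupffer cells that lies elsewhere on chromosome 6, gave 1 count, in WT5. These 3 genes were under the filter on low counts and were not tested. Clec4g, a lectin of sinusoidal endothelium on chromosome 8, gave 42, 37 and 59 counts from WT4 to WT6 and 7, 64 and 40 from KO4 to KO6. Its groups overlapped, with a log2 fold change of -0.54, a standard error of 0.476 and an adjusted p of 0.525 by edgeR's quasi-likelihood test. Clec4g overlaps an exon of Gm16553, so its counts are less certain.

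On the scale of CPM divided by the exon length in kilobases (RPKM), which allows genes of different length to be compared, the 7 genes summed to 22.6, 20.6 and 21.1 RPKM in WT4 to WT6 and to 43.1, 35.8 and 58.5 RPKM in KO4 to KO6. The WT sums were close together, and the KO sums differed among themselves by more than the whole WT range. The means were 21.4 ± 1.07 RPKM in WT mice and 45.8 ± 11.6 RPKM in KO mice (SD, n = 3 each).

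In the WT mice, Clec4a3 (6.57 ± 0.651 RPKM) and Clec4n (5.48 ± 0.767 RPKM) had the highest levels and overlapped each other. Clec4a1 (3.97 ± 0.191 RPKM) came below both, without overlap. Clec4d (1.79 ± 0.0814 RPKM), Clec4b1 (1.56 ± 0.351 RPKM) and Clec4a2 (1.47 ± 0.148 RPKM) followed, and each overlapped its neighbour in that order. Clec4e was lowest, at 0.578 ± 0.145 RPKM, below every other gene. Clec4e thus had the largest fold change and the lowest RPKM, over the longest transcript of the 7, 4804 bases. Its rank depends on that length. In CPM, Clec4e (2.87) was level with Clec4d (2.87) and above Clec4b1 (1.22) in WT mice.

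In the KO mice the order had changed in its upper part. Clec4a3 (16.2 ± 4.96 RPKM) was again first, Clec4a1 (11.7 ± 3.60 RPKM) stood above Clec4n (9.15 ± 1.72 RPKM), and each overlapped its neighbour, while Clec4a3 and Clec4n did not overlap. Below them came Clec4d (2.42 ± 0.490 RPKM), Clec4b1 (2.33 ± 0.148 RPKM), Clec4a2 (2.12 ± 0.219 RPKM) and Clec4e (1.89 ± 0.807 RPKM), each overlapping its neighbour. With the longest transcript in place of all exons as gene length, Clec4a2 moved to 1.73 RPKM and Clec4d to 2.17 RPKM in WT mice.

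The make-up of the sum also differed between genotypes, a comparison within each library that no scaling of libraries can move. Clec4a1 made up 17.0%, 18.8% and 19.9% of the summed RPKM from WT4 to WT6 and 25.8%, 23.5% and 26.6% from KO4 to KO6. Clec4n made up 28.0%, 23.5% and 25.1% from WT4 to WT6 and 20.4%, 21.3% and 18.8% from KO4 to KO6. Clec4d made up 7.68%, 9.18% and 8.35% and then 5.25%, 5.64% and 5.07%. For each of the 3 the groups did not overlap. Clec4a3 made up 30.6 ± 1.49% in WT mice and 35.1 ± 1.96% in KO mice, and Clec4a2 6.84 ± 0.374% and 4.76 ± 0.883%, again without overlap. Clec4b1 and Clec4e overlapped between genotypes in their share, at 7.35 ± 1.97% and 5.33 ± 1.39% for Clec4b1 and 2.71 ± 0.738% and 4.02 ± 1.10% for Clec4e (SD, n = 3 each). For Clec4e only KO5, at 2.78%, lay within the WT range, which reached 3.52% in WT6. KO4 (4.89%) and KO6 (4.39%) were above it.

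**Figure D3:**
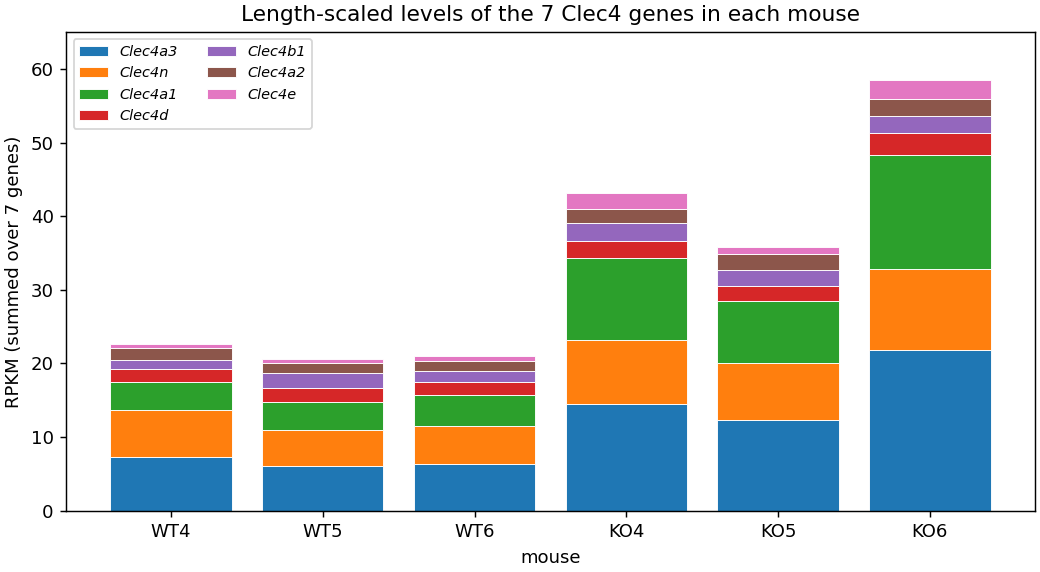
Stacked bars of the RPKM of the 7 Clec4 genes in each mouse, 1 bar per library and 1 colour per gene. The bars reach 20.6 to 22.6 RPKM in the WT mice and 35.8 to 58.5 RPKM in the KO mice, and Clec4a1 takes a larger part of each KO bar than of any WT bar.

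The KO mice kept much the same order from gene to gene. KO6 was the highest mouse for 6 of the 7 genes, the exception being Clec4b1 with KO4. KO5 was the lowest KO mouse for Clec4a1, Clec4a3, Clec4d, Clec4e and Clec4n. The order KO6 over KO4 over KO5 held for those 5 genes and for 14.8% of all tested genes, and it was singled out after the values were seen. As a mean over the 7 genes of log2 CPM minus its WT mean, the level was 0.95 in KO4, 0.65 in KO5 and 1.26 in KO6, and between -0.01 and 0.02 in the WT mice. The total counts ran in the opposite order, lowest in KO6 and highest in KO5, and immunoglobulin genes took 1.04% of counts in KO6, 0.633% in KO4 and 0.494% in KO5. The part of depth or of these genes in the order was not tested.

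By the root mean square difference of the same quantity over the 6 mice, Clec4a1 and Clec4a3 were each other's nearest member (0.210), as were Clec4a2 and Clec4d (0.172). Clec4n was nearest to Clec4a2 (0.184), Clec4b1 to Clec4d (0.275) and Clec4e to Clec4a1 (0.269). The measure includes the size of the difference, so genes of like fold change come out as near. Of the other tested genes, those nearest to the mean of the 7 were Gpr35, a G protein-coupled receptor gene (0.0833), Celsr3, a cadherin gene (0.0834), Tiam2, an exchange factor gene (0.0944), Serpina3i, a serpin gene (0.113), and Ppfia4, a liprin gene (0.123).

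The adaptors and kinases that stand next to these receptors were mostly higher in the KO mice. Of 16 receptor-proximal signalling genes, 10 were called higher, beside 3.72% of all tested genes. Their median log2 fold change was 0.77 against 0.0030 over all tested genes. Fcer1g, the adaptor itself, measured 26.8, 17.1 and 25.5 CPM in WT4 to WT6 and 39.1, 36.8 and 49.5 CPM in KO4 to KO6. The groups did not overlap, and its log2 fold change was 0.85 (adjusted p = 0.0440). Tyrobp, the adaptor DAP12 of related receptors, measured 38.3, 29.4 and 35.0 CPM in WT4 to WT6 and 57.9, 56.7 and 73.8 CPM in KO4 to KO6, a log2 fold change of 0.87 (adjusted p = 0.0208). All KO mice were above all WT mice for both adaptors, and KO6 was again highest. Over the whole list KO5 was highest instead. Its mean of log2 CPM minus the WT mean was 0.75, against 0.45 in KO4 and 0.63 in KO6. The order KO6 over KO4 over KO5 held for 4 of the 16 genes.

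Syk was not called, with KO5 far above the other KO mice. It measured 64.0, 53.2 and 57.3 CPM in WT4 to WT6 and 84.6, 210 and 103 CPM in KO4 to KO6, and every KO mouse was above every WT mouse (log2 fold change of 1.19, adjusted p = 0.0718). Without KO5, Syk was called at a log2 fold change of 0.68, adjusted p = 0.0196, and Card9 was not (0.46, adjusted p = 0.0624). The kinases Fgr (log2 fold change of 1.43, adjusted p = 0.0142) and Lyn (0.44, adjusted p = 0.0199) rose, as did Plcg2 (1.10, adjusted p = 0.0303), Vav1 (1.10, adjusted p = 0.0422) and Prkcd (0.37, adjusted p = 0.0196), which act just after Syk. Card9, which hands the signal to NF-kappaB, rose by a log2 fold change of 0.43 (adjusted p = 0.0470) and its partner Malt1 by 0.72 (adjusted p = 0.0389), while Bcl10, which joins both in a complex, overlapped between genotypes at -0.05 (adjusted p = 0.699). All these are adjusted p-values of edgeR's quasi-likelihood test. The 10 calls of the list fell to 3 without WT4, 0 without WT5, 1 without WT6 and 2 without KO6.

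Of the 3 inhibitory phosphatases, Ptpn6 rose (log2 fold change of 1.09, adjusted p = 0.0322), Inpp5d was at 0.31 (adjusted p = 0.0951) and Ptpn11 at -0.16 (adjusted p = 0.0988). Ptpn6 was highest in KO5, at 133 CPM against 73.5 and 87.1 CPM in KO4 and KO6. Of 13 genes of NF-kappaB and the inflammasome, 4 were called higher, Casp1 (0.91, adjusted p = 0.00665), Malt1, Relb (0.64, adjusted p = 0.0175) and Nfkb2 (0.41, adjusted p = 0.0189), with a median of 0.39. Over all tested genes 3.72% were called higher. Of 20 cytokine and other response genes that these receptors can switch on, 16 were tested and none was called by edgeR's quasi-likelihood test, by edgeR's exact test or by DESeq2, with a median of 0.02. At an unadjusted p of at most 0.05 the quasi-likelihood test marked 6 of the 16.

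Of 11 myeloid transcription factors, 2 were called higher and 1 lower, where 3.72% of all tested genes were called higher and 2.67% lower. Spi1, which encodes PU.1, measured 27.4, 24.2 and 24.6 CPM in WT4 to WT6 and 40.8, 44.3 and 52.1 CPM in KO4 to KO6. All KO mice were above all WT mice, and KO6 was highest (log2 fold change of 0.85, adjusted p = 0.0121). Irf5 rose as well (0.94, adjusted p = 0.0189), Klf4 fell (-0.78, adjusted p = 0.00665), and Cebpb overlapped between genotypes (-0.15, adjusted p = 0.407). Counting each gene once, 16 of the 58 tested signalling genes were called higher and 1 lower, with a median log2 fold change of 0.30. The total of 17 calls fell to 7 without WT4, 0 without WT5, 3 without WT6 and 5 without KO6, and was 21 without KO4 and 17 without KO5.

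Of 24 other C-type lectin receptors, 23 were tested and 3 were called higher, beside 3.72% of all tested genes. Clec12a, an inhibitory receptor for uric acid crystals, measured 7.65, 6.28 and 8.28 CPM in WT4 to WT6 and 18.0, 18.2 and 22.7 CPM in KO4 to KO6, with no overlap (log2 fold change of 1.40, adjusted p = 0.00898). Clec7a, which encodes the beta-glucan receptor Dectin-1, measured 44.2, 35.6 and 39.7 CPM in WT4 to WT6 and 57.6, 51.7 and 66.3 CPM in KO4 to KO6, with no overlap (0.55, adjusted p = 0.0374). Ly75, which encodes the endocytic receptor DEC-205, was the other (0.53, adjusted p = 0.0240). The median log2 fold change was 0.21, and 8 of the 23 had every KO mouse above every WT mouse, beside the 17.0% of all tested genes. The count of 3 fell to 0 without WT5 and to 1 without WT6 or without KO6.

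**Figure D4:**
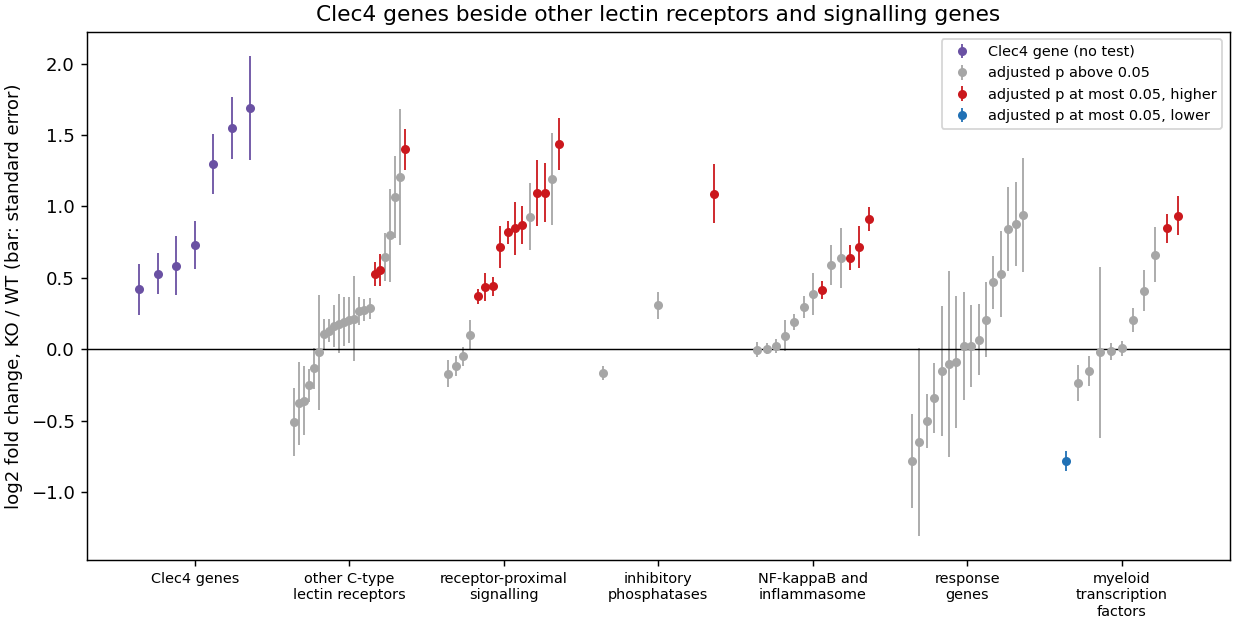
Log2 fold changes of KO over WT mice with 1 standard error for the 7 Clec4 genes (purple) and for the tested genes of 6 lists, 1 point per gene in rising order within each list. Red points are called higher and blue points lower at an adjusted p of at most 0.05, grey points are not called. The receptor-proximal genes hold 10 red points, the response genes none.

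Markers of several leukocyte types also moved with genotype. The calls below stand beside the 3.72% of all tested genes that were called higher and the 2.67% that were called lower. Of 10 nonclassical monocyte markers 7 were called higher, with a median log2 fold change of 1.22. Adgre4 measured 10.5, 6.13 and 7.86 CPM in WT4 to WT6 and 39.0, 25.9 and 57.4 CPM in KO4 to KO6, a log2 fold change of 2.31 (adjusted p = 0.0176). Cd300e measured 4.19, 3.93 and 4.08 CPM in WT4 to WT6 and 16.8, 9.71 and 23.4 CPM in KO4 to KO6 (2.02, adjusted p = 0.0206), and Treml4 and Cx3cr1 had log2 fold changes of 1.76 (adjusted p = 0.0246) and 1.52 (adjusted p = 0.0118). In these 4 genes, as in 6 of the 10 of the list and in 5 of the 7 Clec4 genes, the order was KO6 over KO4 over KO5. The 7 calls fell to 0 without WT5 or WT6 and numbered 5 to 7 without each other mouse. Called higher were also 7 of 10 pan-myeloid, 5 of 8 classical monocyte, 3 of the 10 tested neutrophil, 3 of 9 interstitial macrophage and 2 of 10 alveolar macrophage markers. The medians were 0.88, 0.91, 0.76, 0.41 and 0.21. The 7 pan-myeloid calls fell to 0 without WT5, WT6 or KO6 and to 5 without WT4. The 5 classical monocyte calls fell to 0 without WT5 or WT6, 2 without KO6, 3 without WT4 and 4 without KO5. Of 9 conventional dendritic cell markers 3 were called higher and 1 lower, and of 6 natural killer cell markers 1 was called higher. Without KO5 the conventional dendritic cell markers had 1 call in each direction and the alveolar macrophage markers 1 call.

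The most abundant genes weigh most in a summed level, and some are used by other lung cells too. Lyz2 of the pan-myeloid list, a lysozyme gene that type 2 alveolar cells also use, stood at 4230 ± 486 CPM in WT mice and 4117 ± 342 CPM in KO mice (SD, n = 3 each), and Ace of the nonclassical monocyte list, an enzyme that endothelium also makes, at 1448 ± 25.0 CPM in WT mice and 1462 ± 155 CPM in KO mice (SD, n = 3 each). Hp, a haptoglobin gene of the classical monocyte list, stood at 860 ± 111 CPM in WT mice and 609 ± 89.1 CPM in KO mice (SD, n = 3 each), and Lyve1 of the interstitial macrophage list, which lymphatic endothelium also uses, at 349 ± 63.6 CPM in WT mice and 203 ± 54.8 CPM in KO mice (SD, n = 3 each). In both every KO mouse was below every WT mouse without a call (adjusted p = 0.0710 and 0.0698), and both lower the KO sums of lists in which 5 of 8 and 3 of 9 genes were called higher. Nonclassical monocyte markers summed to 1663 to 1703 CPM in WT mice and 1752 to 2083 CPM in KO mice, and pan-myeloid markers to 4093 to 5138 and 4716 to 5156 CPM. Classical monocyte markers summed to 888 to 1095 and 841 to 897 CPM, neutrophil markers to 85.0 to 199 and 168 to 237 CPM, alveolar macrophage markers to 601 to 880 and 713 to 916 CPM, interstitial macrophage markers to 509 to 585 and 433 to 493 CPM, and conventional dendritic cell markers to 116 to 126 and 117 to 137 CPM. No marker was at 0 in all mice, but the neutrophil markers Ly6g and Camp and the mast cell marker Tpsab1 were under the filter on low counts. The part of these cell types in the Clec4 levels was not tested.

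Other lists moved in other ways. All 9 B cell markers were above the WT range in every KO mouse, beside 17.0% of all tested genes. Their median log2 fold change was 1.91, and edgeR's quasi-likelihood test gave an unadjusted p of at most 0.05 in 9 of 9. With an adjusted p, edgeR's quasi-likelihood test called 0, its exact test 9 and DESeq2 7, and the quasi-likelihood test called 7 without KO5. Their sums were 134 to 146 CPM in WT mice and 248 to 1061 CPM in KO mice, highest in KO5, where 5 of the 7 Clec4 genes were at their lowest among the KO mice. T cell markers summed to 46.8 to 52.6 and 54.5 to 140 CPM, again highest in KO5. Natural killer cell markers summed to 27.9 to 39.5 and 46.5 to 61.4 CPM, plasmacytoid dendritic cell markers to 295 to 311 and 332 to 340 CPM, mast cell markers to 2.09 to 5.80 and 3.32 to 8.16 CPM, alveolar epithelial markers to 21677 to 24233 and 17669 to 22263 CPM and endothelial markers to 3520 to 3884 and 3315 to 3975 CPM. Most of the plasmacytoid dendritic cell sum was Tcf4, at 222 ± 5.47 CPM in WT mice and 248 ± 7.58 CPM in KO mice (SD, n = 3 each). Of the 5 markers of that list 3 overlapped between genotypes. All 5 red cell markers were called lower (0 called without WT5, WT6 or KO6, and 3 without WT4), beside 2.67% of all tested genes. They summed to 2126 to 2277 CPM in WT mice and 1035 to 1411 CPM in KO mice. Of 6 endothelial markers 1, Cldn5, was called lower, beside the same 2.67%. With any 1 of the 6 mice left out, KO5 included, 0 endothelial markers were called by edgeR's quasi-likelihood test (1 or 2 at an unadjusted p of at most 0.05). The quasi-likelihood test called 0 of 8 T cell markers (7 at an unadjusted p of at most 0.05), 0 of 5 plasmacytoid dendritic cell markers (3), 0 of 5 tested mast cell markers (2) and 0 of 9 alveolar epithelial markers (3). The exact test called 1, 0, 0 and 0 of these, and DESeq2 5, 1, 0 and 3. Without WT5, where 1 gene of all 17545 tested was called, the calls of every list named above fell to 0.

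**Figure D5:**
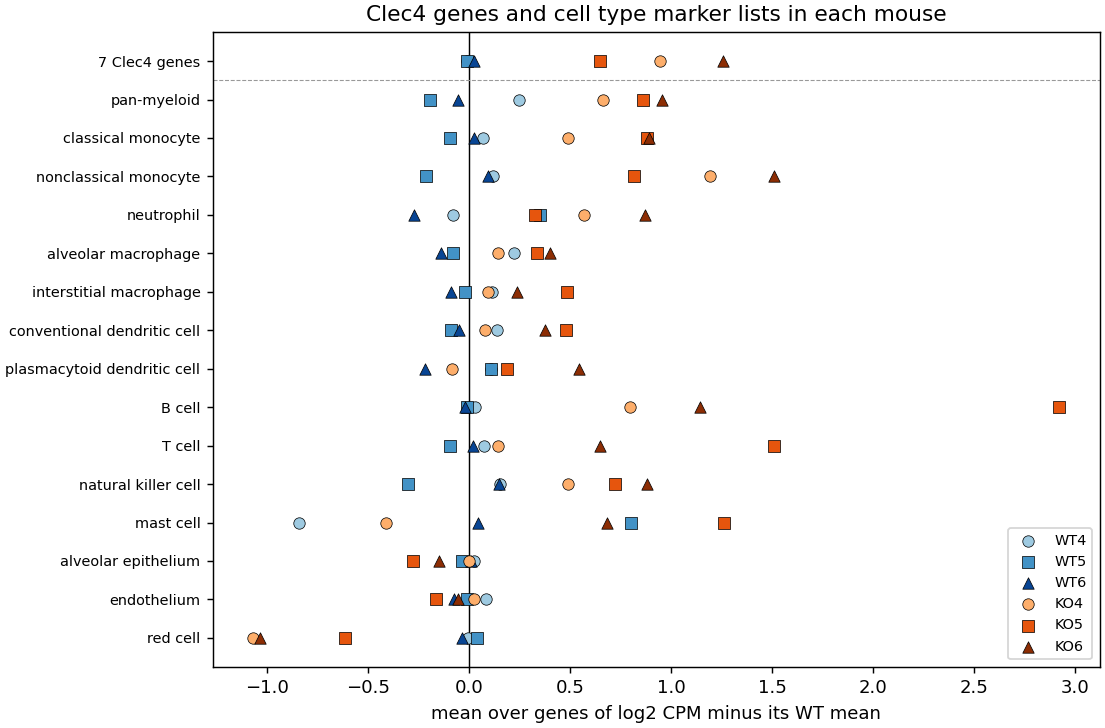
Mean over genes of log2 CPM minus its WT mean, 1 point per mouse, for the 7 Clec4 genes (top line) and 15 lists of cell type markers. KO5, KO4 and KO6 follow in rising order for the Clec4 genes (0.65, 0.95 and 1.26) and for the nonclassical monocyte markers (0.81, 1.19 and 1.51). The neutrophil mean has the same order (0.33, 0.57 and 0.87, with WT5 at 0.35). Only 3 of its 10 tested genes have it, S100a8, S100a9 and Ltf. Ltf overlapped between genotypes, at 10.4, 98.7 and 23.4 CPM in WT4 to WT6 and 38.1, 4.64 and 59.7 CPM in KO4 to KO6. KO5 is the highest mouse for B and T cell markers.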

How the data were processed

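RNA from lungs of 3 WT and 3 KO mice was sequenced as stranded mRNA libraries. According to the submitters' processing notes and the study's methods, reads were trimmed with Trimmomatic 0.36, aligned to GRCm38 with STAR 2.5.3a, handled with Picard 2.9.0 and counted with HTSeq 0.6.0. The authors deposited these counts unnormalized, as whole numbers for 47069 Ensembl genes. The annotation release and the strand setting of the counting are not given in the sources used here.

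The counts were tested in R 4.3.3 with edgeR 4.0.16 (quasi-likelihood test, TMM normalization, filterByExpr with a minimum count of 10 and a minimum total of 15, Benjamini-Hochberg adjustment over 17037 genes), with all 6 libraries and no covariate. A gene was called at an adjusted p of at most 0.05. Standard errors were obtained by dividing a log2 fold change by the root of its F statistic. CPM values used TMM-scaled library sizes, and RPKM values used the union of exons in GENCODE mouse release 21. Log2 CPM for relative levels had a prior count of 0.5. On simulated counts for this comparison (17037 genes, 200 of them shifted by 2 on the log2 scale, 3 sets) the test recovered 99.3% of changed genes, with 4.32% false calls.

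Genes named in the text are the Clec4 genes, genes of the lists that were called, and the 5 tested genes nearest to the mean profile. Fcer1g, Tyrobp, Syk, Card9, Ptpn6, Spi1 and Cebpb are named whatever their value. Bcl10, Inpp5d, Ptpn11, Lyz2, Ace, Hp, Lyve1, Ltf, Tcf4, Apobec1, Gdf3, Necap1 and the untested markers were added after their values were seen. A called gene of the lists is counted but not reported here by name. The members and the lists were chosen with earlier results of these data known. Alternatives were other scalings (DESeq2 1.42.0 size factors, upper quartile), other filters, edgeR's exact test, DESeq2, a replicate block, libraries without immunoglobulin genes, and each mouse left out. The marker lists under these alternatives and the flanks of the cluster were added after the data were seen. Coding sequences were aligned with Biopython 1.88.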

Additional observations from a re-analysis of the deposited data

How the results depend on the processing

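The log2 fold change was above 0 for 7 of the 7 Clec4 genes in the main analysis and in each of the 14 alternatives. The genes were chosen for being higher and their groups did not overlap, so the signs could hardly have turned and nothing is read from them. No alternative moved a log2 fold change of the 7 by more than the spread between replicates. Leaving out 1 mouse at a time, it ran from 1.29 to 1.74 for Clec4a1, 0.45 to 0.62 for Clec4a2, 1.03 to 1.46 for Clec4a3, 0.47 to 0.77 for Clec4b1, 0.25 to 0.54 for Clec4d, 1.40 to 2.0 for Clec4e and 0.58 to 0.85 for Clec4n. The counts of calls depended much more on the processing. Over all tested genes the main analysis called 1089, DESeq2 called 1913, and leaving out 1 mouse gave from 1 (without WT5) to 1278 (without KO4). Of the Clec4 genes 4 were called, and 0 to 4 with a mouse left out. Where 0 were called by edgeR's quasi-likelihood test, 5 (without WT4), 6 (without WT5) and 5 (without WT6) had an unadjusted p of at most 0.05. Of the other C-type lectin receptors 3 were called, 5 by edgeR's exact test, 6 by DESeq2 and 0 to 3 with a mouse left out. Of the signalling genes 17 were called, and 0 to 21 with a mouse left out. With a mouse left out, higher calls in the smaller lists ran from 0 to 6 (NF-kappaB and inflammasome), 0 to 4 (transcription factors, interstitial macrophage), 0 to 3 (neutrophil, conventional dendritic cell), 0 to 2 (phosphatases, alveolar macrophage), 0 to 1 (natural killer cell), 0 to 7 (B cell) and 0 to 5 (T cell). DESeq2 called 8 NF-kappaB and inflammasome genes, 6 neutrophil, 4 natural killer cell, 7 B cell and 5 T cell markers higher, and edgeR's exact test 6, 4, 2, 9 and 1. The cause was not tested.

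WT and KO mice share the numbers 4 to 6 in the labels, but same-numbered mice did not deviate together (correlations of -0.027, -0.15 and -0.021 over genes). These correlations rest on 3 mice per group, each set against its group's mean, and cannot exclude a pairing. With the replicate block, 66 genes, 0 Clec4 genes (5 at an unadjusted p of at most 0.05), 1 other C-type lectin receptor and 3 signalling genes were called. With the longest transcript as gene length, the WT levels of Clec4a2 and Clec4d moved to 1.73 and 2.17 RPKM. Other scalings left the share of higher genes among those called between 57.7% and 63.4%, against 58.2%.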
